A study of Mus musculus with 12 samples.

Results

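The cytosolic ribosomal protein genes encode the protein part of the machine that RiboTag pulls down, and one of them, Rpl22, carries the tag. Members were the rows whose symbol follows the Rpl and Rps pattern, with Rpsa, Rplp0, Rplp1 and Rplp2, and that had at least 10 counts in at least 3 of the 12 libraries. Of 84 symbols that matched, 81 met the count rule, out of 24060 genes in all. They comprised 49 genes of the large subunit and 32 of the small subunit, and 5 of the 81 were paralogs (Rpl22l1, Rpl7l1, Rpl36al, Rps27l and Rps4l). The members just inside the count rule were Rpl26, with 1 to 183 counts, and Rpl30, with 7 to 165 counts, each at 10 counts or more in 10 libraries. Just outside it were Rpl3l, which had 90 counts in the CFD input of animal 556, 18 in that of HFD animal 516 and at most 4 elsewhere, Rpl39l with 1 count in all, and Rpl10l with 0.

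All 6 mice were males of the genotype Tie2-Cre:Rpl22-HA. Of these, 3 (animals 489, 555 and 556) ate control chow with 10% of its kcal as fat (CFD) and 3 (animals 516, 517 and 676) fat-rich chow with 60% (HFD). White matter of the brain of each mouse gave an anti-HA pulldown library (IP) and an input library of the same tissue, so 4 groups held 3 libraries each. All groups carried both alleles, and no untagged or Cre-negative pulldown was analysed here. Tie2 drives Cre in endothelium and also in cells of the blood-forming lineage, and an IP can keep RNA of untagged cells. The labels did not give the age of these mice.

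A ribosome is built from ribosomal RNA and a set of proteins most of which are needed in equal numbers, so cells control their genes together. Their mRNAs begin with a run of pyrimidines at the 5′ end, the terminal oligopyrimidine (TOP) motif, through which the kinase mTORC1 and the protein Larp1 adjust their translation as a group. Because an mRNA of this class can be stored off ribosomes, its level in tissue and its level on ribosomes need not match.

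The TOP motif is the sequence feature these genes are known to share, so the annotated transcript starts were read from RefSeq promoters of GRCm38.p6, the assembly also called mm10. An entry was matched for 60 of the 81 genes. The windows of 30 bases below run from 10 bases before the annotated start to 20 bases from it, on the coding strand. They show the tagged gene, its paralog, the genes that the comparisons turn on, and 4 genes with a typical TOP start. Capitals mark the longest run of C and T within 5 bases of the start, as far as it lies in the window.
Rpl22 (chr4:152324426-152324455, plus strand): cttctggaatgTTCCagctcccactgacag
Rpl22l1 (chr3:28805498-28805527, plus strand): gcgcaagcccgTTCTCTTCCCacggctgca
Rpsa (chr9:120127756-120127785, plus strand): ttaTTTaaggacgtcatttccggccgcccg
Rpl4 (chr9:64173377-64173406, plus strand): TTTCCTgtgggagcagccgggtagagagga
Rps15 (chr10:80292421-80292450, plus strand): cagagCTCgcgataactgcgcaagcgcagc
Rpl41 (chr10:128549149-128549178, minus strand): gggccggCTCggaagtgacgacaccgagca
Rps6 (chr4:86857348-86857377, minus strand): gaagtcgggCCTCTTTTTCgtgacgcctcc
Rplp2 (chr7:141447641-141447670, plus strand): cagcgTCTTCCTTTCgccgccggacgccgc
Rpl38 (chr11:114668570-114668599, plus strand): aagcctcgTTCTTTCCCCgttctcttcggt
Rps27 (chr3:90213629-90213658, minus strand): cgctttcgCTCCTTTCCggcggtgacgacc

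A run of at least 8 pyrimidines lay within 5 bases of the start in 24 of the 60 genes, or 40.0%. The share was 10.3% of 68 genes of the mitochondrial ribosome and 10.96% of 27025 genes with a promoter entry. A C at the start itself followed by 4 pyrimidines was present in 13 of the 60 genes (21.7%), in 0 of the mitochondrial ribosomal genes and in 3.01% of all. Where a gene had several annotated starts, the one with the longest run was taken, in all 3 sets alike. Rpsa, Rps15, Rpl41 and Rpl22 had runs of 3 to 4 bases within 5 bases of the annotated start, whereas Rps6, Rplp2 and Rpl38 each had a run of 10 bases. The runs of Rpsa, Rps15 and Rpl41 end before the start, outside the annotated transcript. The counts of runs of at least 8 include such runs too, for example that of Rpl4. An annotated start can differ from the start used in this tissue, and a window without the run says only that these letters are not in it.

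Library totals ran from 19567186 to 33660708 counts, and all 81 genes passed the filter on low values that kept 14354 genes for testing. Libraries of a group differed widely (the common dispersion across genes gave a coefficient of variation of 101%). Rn45s, the precursor of ribosomal RNA, took 38.7% to 42.3% of the counts in CFD IP, 17.1% to 19.1% in HFD IP and 6.34% to 14.2% in input. Endothelial markers (19 genes) summed to 75.3 to 414 CPM (counts scaled to a common library total) in CFD IP and 61.0 to 131 in HFD IP, against 51.2 to 69.1 in CFD input and 64.9 to 122 in HFD input, when Rn45s and Lars2 were set aside. Their medians were 89.4 CPM in CFD IP against 63.5 in CFD input, and 102 in HFD IP against 115 in HFD input. Eng was at 0 in all 3 CFD IP libraries, and Cldn5 and Foxq1 at 0 in all 3 CFD input libraries. Neuronal markers (10 genes) stood at 7426 to 11544 CPM in CFD IP and 12007 to 13018 in HFD IP, and oligodendrocyte markers (10 genes) at 5444 to 7315 and 4037 to 8598. In input the neuronal markers stood at 12414 to 16360 CPM in CFD and 11923 to 15592 in HFD. The oligodendrocyte markers stood at 5615 to 6444 CPM in CFD input and 4416 to 6463 in HFD input. Astrocyte markers (10 genes) stood at 4732 to 10917 CPM in CFD IP and 5916 to 8661 in HFD IP. In input these were at 6475 to 7755 and 5406 to 5954 CPM. The astrocyte medians were 10075 CPM in CFD IP against 6670 in CFD input, and 8617 in HFD IP against 5557 in HFD input. Blood markers (10 genes) stayed at 4.06 CPM or less in IP, against 4.50 to 28.7 in CFD input and 2.54 to 25.6 in HFD input. The globin genes Hba-a1, Hba-a2 and Hbb-bt were at 0 in all 12 libraries, input included, so this sum says little about blood cells. The part of these differences in the results that follow was not tested.

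Rpl22 was measured first, since its protein bears the tag. It lies on chromosome 4 at 152324436 to 152334082 and had 422 to 2384 counts in a library. In input it stood at 19.2, 17.9 and 22.3 CPM (from here on relative to the TMM-scaled library) in CFD animals 489, 555 and 556. In HFD input it stood at 41.7, 39.0 and 36.04 CPM in animals 516, 517 and 676. The inputs of the diets did not overlap, yet the two-sided exact permutation test gave p = 0.1, the smallest that 3 animals against 3 allow, and 0.3 after Benjamini-Hochberg adjustment over 6 tests.

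In IP, Rpl22 stood at 21.8, 37.5 and 62.1 CPM in CFD and at 20.2, 78.7 and 45.7 CPM in HFD, with the animals in the same order. The diets overlapped there, and the exact permutation test of HFD IP against CFD IP gave p = 0.8. The IP exceeded the input in 5 of 6 animals, animal 516 being the exception. The mean difference was 0.50 on the log2 scale (SD 0.887 over 6 pairs), with an exact permutation p of 0.188 over 64 sign changes and an adjusted p of 0.3.

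Rpl22l1 encodes the paralog that can take the place of Rpl22 in the large subunit. It was lower in IP than in input in 6 of 6 animals. In CFD it stood at 16.5, 13.7 and 26.9 CPM in input and at 4.29, 2.996 and 5.33 CPM in IP. In HFD it stood at 14.8, 30.7 and 21.1 CPM in input and at 6.03, 4.26 and 14.8 CPM in IP. The CFD fractions did not overlap, and in HFD the IP of animal 676 lay level with the input of animal 516. Over both diets the log2 fold change of IP against input was -1.79 (SE 0.673), and the edgeR p was 0.216 after Benjamini-Hochberg adjustment (unadjusted 0.0142), so it was not called there, whereas DESeq2 called it (adjusted p 0.0186).

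The ratio of Rpl22 to Rpl22l1 was then taken in each library. It was 1.16, 1.31 and 0.828 in CFD input and 5.08, 12.5 and 11.7 in CFD IP. In HFD it was 2.82, 1.27 and 1.71 in input and 3.34, 18.5 and 3.09 in IP. The ratio was higher in IP in 6 of 6 animals, by a mean of 2.25 on the log2 scale (SD 1.49). The exact permutation p was 0.0313, the smallest that 6 pairs can give, and 0.188 after adjustment over the 6 tests. Between the diets the ratio differed by -0.59 in IP and 0.75 in input on the log2 scale, with exact permutation p of 0.7 and 0.2. Rpl22 and Rpl22l1 each have 2 near-identical copies elsewhere in the genome, so their counts are uncertain where reads could be assigned to a copy.

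**Figure D1:**
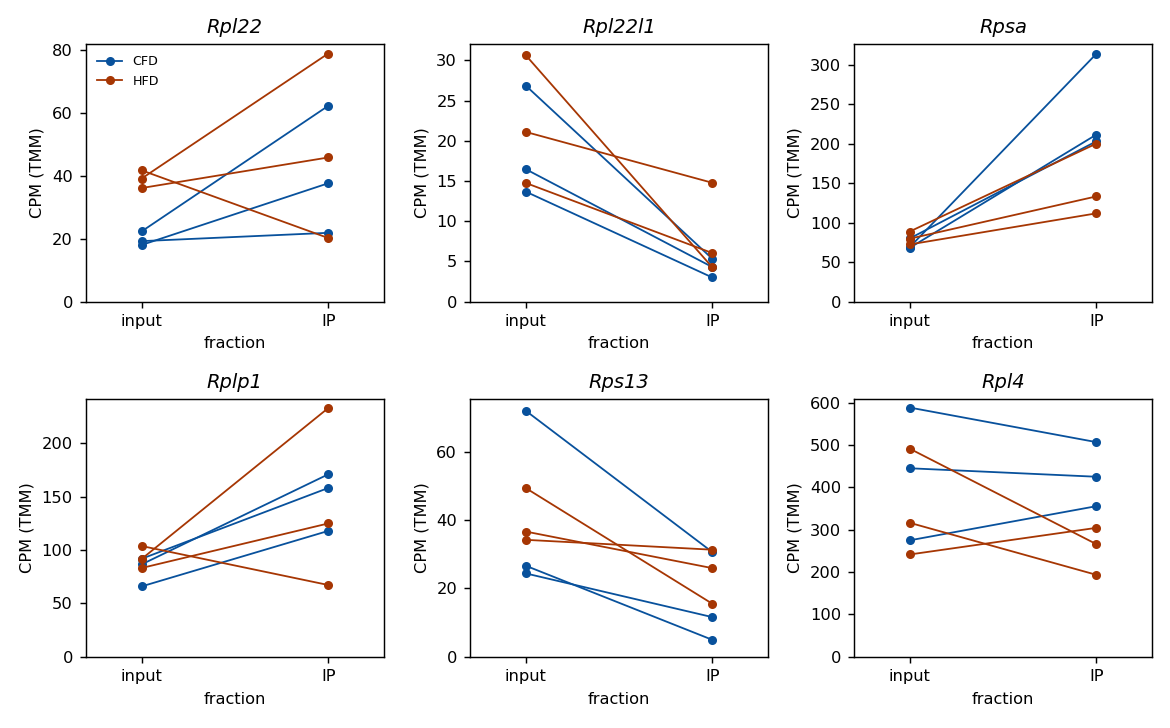
CPM (TMM-scaled, linear axes from 0) of 6 genes in the input and the IP of each animal; a line joins the 2 libraries of 1 mouse, blue for CFD and brown for HFD. Rpl22l1 and Rps13 were lower and Rpsa higher in the IP of all 6 animals, while the lines of Rpl22, Rplp1 and Rpl4 ran both ways.

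Levels were compared between genes in the deposited FPKM, which divide by gene length. The 81 genes had a median of 61.0 FPKM over the 12 libraries, against 3.34 for the 18302 genes with a count and 10.6 for the genes of the mitochondrial ribosome. Rpl4, a core protein of the large subunit, led with 265 ± 112 FPKM (SD over 12 libraries). It was followed by Rpl41, the smallest of these proteins (249.8 ± 69.02), Rplp1 of the stalk (242 ± 76.9), Rps15 (214 ± 79.3) and Rpl13 (153.5 ± 53.1). The ranges of the first 4 overlapped, so their order is within the spread of the libraries. Rpl4 was the most counted member in 11 of 12 libraries, and Rpsa in the HFD IP of animal 517.

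At the other end stood Rpl34 (8.57 ± 6.32 FPKM), Rps4l (7.575 ± 8.02), Rpl7l1 (5.57 ± 3.03), Rpl30 (4.78 ± 4.06) and Rpl26 (3.91 ± 3.60). The highest mean was 67.6 times the lowest. Rpl34, Rpl30 and Rpl26 are single subunit proteins and not paralogs. Near-identical copies elsewhere in the genome, many of them processed pseudogenes, are a known feature of this family. A copy with at least 95% identity over at least 70% of the coding sequence was found for 77 of 80 genes in GRCm38.p6, with a median of 6 and a maximum of 57, for Rpl21. The gene left out was Rps4l, for which no coding sequence was found in the annotation used. Rpl26 had 6 such copies, Rpl30 had 13 and Rpl34 had 5. Across the 80 genes the number of copies and the mean FPKM had a Spearman correlation of -0.08, as a description over genes that share libraries. How the reads of such copies were assigned is not given in the sources used here, so these levels are uncertain in the same way. Rps15a had a deposited length of 5134 bases against a member median of 684, which lowers its FPKM.

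**Figure D2:**
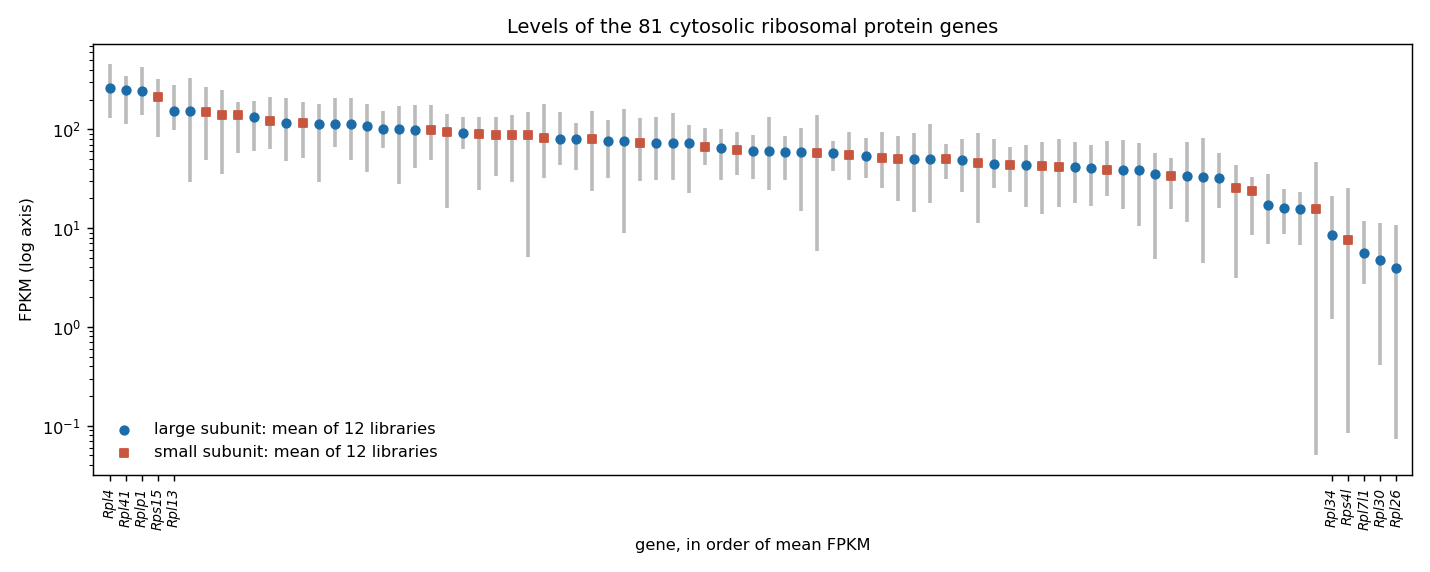
Mean FPKM of each of the 81 genes over 12 libraries on a log axis, in order, with grey bars from the lowest to the highest library (a lowest value of 0, in Rps27l, is drawn at 0.05). The quartiles lie at 41.9 and 97.5 FPKM, and 5 genes fall under 10; the 5 highest and the 5 lowest genes are named on the axis.

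The 5 paralogs were mostly less abundant per length than their partners. Rpl7l1 had 5.57 FPKM against 72.8 for Rpl7, Rps4l 7.575 against 117 for Rps4x, and Rps27l 15.7 against 39.2 for Rps27. Rpl36al stood at 40.8 FPKM and Rpl36a at 38.4, which do not differ beyond their SDs of 18.0 and 20.2. Rpl22l1 stood at 33.0 ± 26.6 FPKM and Rpl22 at 17.3 ± 8.79 over the 12 libraries, with overlapping ranges, but the fractions differed. In input Rpl22l1 lay above Rpl22 in every library, at means of 47.2 against 10.8 FPKM in CFD and 60.7 against 23.7 in HFD. In CFD IP it lay below Rpl22 in every library (means 5.78 against 12.2 FPKM). In HFD IP the ranges overlapped (means 18.2 against 22.5 FPKM). The partners of the uncounted paralogs were at 102 FPKM for Rpl3, 114 for Rpl10 and 41.9 for Rpl39.

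The 81 genes together held 0.334% to 0.699% of all counts. The share was 0.468%, 0.554% and 0.560% in CFD input (animals 489, 555 and 556) and 0.366%, 0.390% and 0.334% in CFD IP. It was 0.699%, 0.631% and 0.455% in HFD input (animals 516, 517 and 676) and 0.360%, 0.339% and 0.516% in HFD IP. The share was lower in IP than in input in 5 of 6 animals and higher in animal 676.

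Set against the counts without Rn45s and Lars2, the order was different. The share averaged 0.594% ± 0.0387 in CFD input and 0.622% ± 0.0276 in CFD IP (SD, n = 3 each). It averaged 0.648% ± 0.128 in HFD input and 0.498% ± 0.113 in HFD IP (SD, n = 3 each). The lower HFD IP mean came from animals 516 (0.450%) and 517 (0.417%), while animal 676 stood at 0.627%, inside the CFD IP range of 0.598% to 0.652%. Counts of the large subunit were 1.48 to 1.99 times those of the small subunit, and the groups overlapped.

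**Figure D3:**
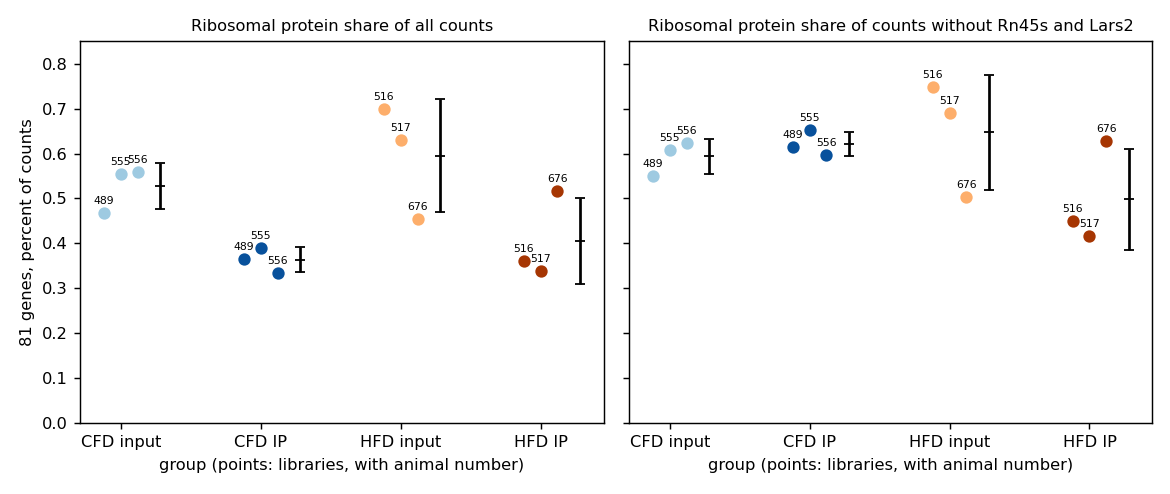
Share of the counts of each library that fell on the 81 genes, of all counts (left) and without Rn45s and Lars2 (right); points are libraries labelled by animal, bars are mean ± SD of 3. Setting Rn45s and Lars2 aside moves CFD IP from 0.363% to 0.622% and HFD IP from 0.405% to 0.498%.

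Within a group the ribosomal protein genes varied less than most genes. The SD of log2 CPM within groups had a median of 0.57 over the 81 genes in IP and 0.39 in input, against 1.34 and 0.83 for all genes tested, which include many low counts. The SD was larger in IP than in input for 61 of the 81. The steadiest were Rpl31 (SD 0.24), Rps28 (0.28) and Rpl13 (0.29), and the most variable Rps4l (1.90), Rps27l (1.89) and Rpl26 (1.85), 3 genes at low counts. Pairs of the 81 genes had a median correlation of 0.18 over the 12 libraries after group means were removed, against 0.03 for the mitochondrial ribosomal genes. Those correlations share library size and scaling.

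The comparison of HFD IP with CFD IP asks which mRNAs in the pulldown differ with diet. Among the ribosomal protein genes most were lower in HFD, by a modest amount, and no gene passed edgeR's test. The median log2 fold change was -0.36 over the 81 genes, against 0.03 over all genes tested. Of the 81, 62 were lower, where 6936 of the 14354 genes tested were. The median was -0.48 in the large subunit (39 of 49 lower) and -0.16 in the small subunit (23 of 32 lower). Per library, the median log2 CPM of the members was 5.59, 5.73 and 5.49 in CFD IP (animals 489, 555 and 556). In HFD IP it was 5.24, 5.13 and 5.51 (animals 516, 517 and 676), so animal 676 lay inside the CFD range. By edgeR's quasi-likelihood test at a Benjamini-Hochberg adjusted p under 0.1, 0 of the 81 genes were called, where 0.0557% of all genes were. At an unadjusted p under 0.05, 7 of the 81 passed, 6 lower and 1 higher, where 10.9% of all genes passed. The share of members was not above the background at that threshold. DESeq2 called 3 of the 81 (Rps15, Rpl10a and Rps27l), or 3.704%, where it called 5.79% of all genes with an adjusted p. Summed microglia and macrophage markers (12 genes) also differed between these libraries, and the groups did not overlap. Without Rn45s and Lars2 the sums stood at 146 to 219 CPM in CFD IP and 254 to 380 CPM in HFD IP. In input they overlapped, at 138 to 285 CPM in CFD and 160 to 227 CPM in HFD. Of the 12 genes, 8 were higher and 4 lower in HFD IP. By edgeR 0 of them passed an unadjusted p under 0.05, where 10.9% of all genes did. The part of these markers in the result was not tested. In bulk pulldowns, fewer tagged cells and less RNA per cell cannot be told apart.

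Rps15, whose protein sits in the head of the small subunit, had the smallest p. It stood at 136, 112 and 220 CPM in the CFD IP of animals 489, 555 and 556 and at 69.01, 45.3 and 83.3 CPM in the HFD IP of animals 516, 517 and 676. Every HFD library lay below every CFD library. The log2 fold change was -1.24 (SE 0.396), and the edgeR adjusted p was 0.323 (unadjusted 0.00472). Its inputs overlapped, at 90.6 to 152 CPM in CFD and 80.3 to 127 CPM in HFD.

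Rpl10a, the protein of the L1 stalk of the large subunit, stood at 57.9, 75.8 and 103 CPM in CFD IP and at 37.6, 7.66 and 35.4 CPM in HFD IP. The groups did not overlap, and animal 517 lay far below the others. The log2 fold change was -1.55 (SE 0.566, edgeR unadjusted p 0.0119, adjusted p 0.363). Rpl41 stood at 141, 166 and 237 CPM in CFD IP and at 58.9, 105 and 108 CPM in HFD IP, a log2 fold change of -1.0 (SE 0.4, edgeR adjusted p 0.388). Rpl4, the most abundant member, stood at 355, 507 and 425 CPM in CFD IP and 266, 193 and 304 CPM in HFD IP, a log2 fold change of -0.75 (SE 0.333, edgeR adjusted p 0.411).

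In the other direction stood Rps27l, Rps6 and Rpl22l1. Rps27l, a p53 target that is a paralog of Rps27, was at 1.60, 0 and 1.35 CPM in CFD IP and at 25.4, 13.5 and 5.24 CPM in HFD IP. The log2 fold change was 3.90 (SE 1.68), and the edgeR adjusted p was 0.404 (unadjusted 0.0297). Its inputs ran from 1.07 to 18.7 CPM and overlapped with IP libraries of both diets. Rps6, the small subunit protein that S6 kinase phosphorylates downstream of mTORC1, was at 23.9, 26.3 and 7.23 CPM in CFD IP and at 38.3, 30.7 and 45.5 CPM in HFD IP. The groups did not overlap, and the log2 fold change was 0.995 (SE 0.628, edgeR adjusted p 0.553).

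Counting genes whose IP libraries did not overlap between the diets gave 13 of the 81 lower in HFD (16.05%), where 4.66% of all genes tested did the same. Among these, named after their values were seen, were Rpl4, Rpl6, Rpl8, Rpl10a, Rpl21, Rpl31, Rpl41, Rps15, Rps21, Rps24, Rps29 and Rpsa. In the higher direction 2 of the 81 did not overlap, Rps6 and Rps27l, or 2.47% against 5.94% of all genes. These genes have smaller spread than the typical gene, and the counts of both sets share the same 6 libraries. Rn45s was also lower in HFD IP, with a log2 fold change of -1.71 (SE 0.202, edgeR adjusted p 0.000311). With Rn45s and Lars2 set aside, 14 members (17.3%) were lower without overlap, where 4.93% of all genes were, and 2 were higher, where 5.74% were.

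**Figure D4:**
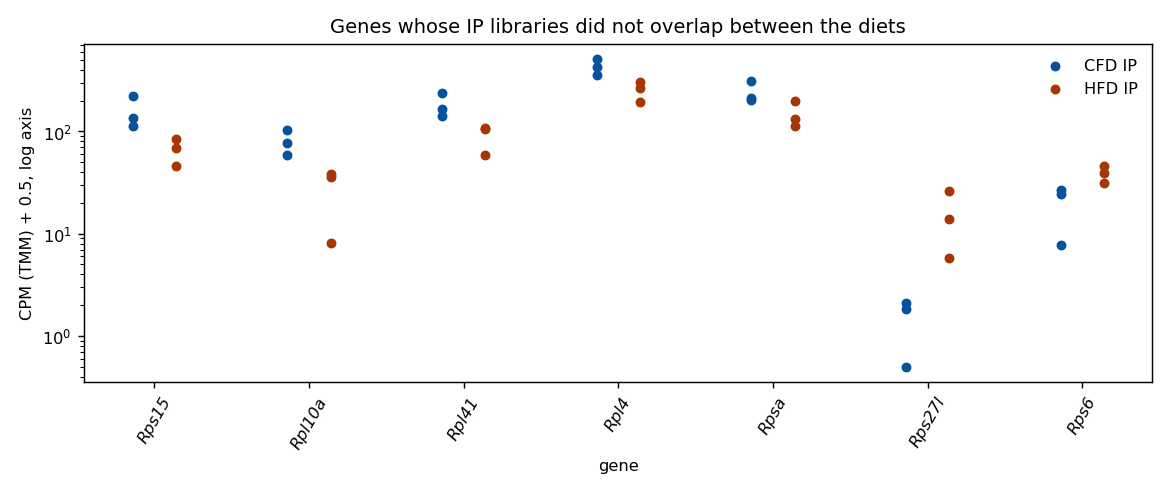
CPM + 0.5 on a log axis for the genes described singly above whose CFD IP (blue) and HFD IP (brown) libraries did not overlap, and Rpsa; each point is 1 of 3 libraries. Rps15, Rpl10a, Rpl41, Rpl4 and Rpsa lie lower in HFD IP, and Rps27l and Rps6 higher.

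The same comparison in input, HFD against CFD, asks what diet does to the whole tissue. In the main fit the 81 genes were balanced, with 41 higher and 40 lower and a median log2 fold change of 0.00. With the trend with transcript length removed the median was -0.19, with 30 higher and 51 lower. Without animal 676 it was 0.20, with 55 higher and 26 lower, so the balance depended on the processing. By edgeR at an adjusted p under 0.1, 0 of the 81 were called, where 0% of all genes were, and DESeq2 also called 0 of the 81, where it called 0.225% of genes with an adjusted p. At an unadjusted p under 0.05, 0 of the 81 passed, where 2.03% of all genes did. Libraries did not overlap in 4 genes higher in HFD input (Rpl13, Rpl22, Rps9 and Rps23), where 6.05% of all genes did so, and in 3 lower (Rps28 and Rps29 among them), where 4.33% did. These are 4.94% and 3.704% of the members.

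The smallest p in input belonged to Rps9, Rpl22 and Rpl13 among the higher genes. Rps9 stood at 51.4, 41.4 and 49.5 CPM in CFD input and 92.9, 90.4 and 56.7 CPM in HFD input, a log2 fold change of 0.75 (SE 0.445, edgeR unadjusted p 0.104). The log2 fold changes of Rpl22 and Rpl13 were 0.98 (SE 0.610) and 0.57 (SE 0.356), for which edgeR gave unadjusted p of 0.124 and 0.125. Among the lower genes, Rpl4 had -0.32 (SE 0.332) on the log2 scale.

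IP was then compared with input on each diet, which asks which mRNAs were higher in the pulldown than in the tissue, whatever cells they came from. On CFD, 54 of the 81 genes were higher in IP, with a median log2 fold change of 0.29, against -0.01 over all genes tested. The median was 0.18 without animal 489 and 0.54 with the length trend removed and animal as a block. By edgeR at an adjusted p under 0.1, 1 of the 81 was called, Rpsa, where 0.188% of all genes were. At an unadjusted p under 0.05, 3 were higher and 1 lower, or 4 of the 81, where 11.8% of all genes passed. DESeq2 called 2 of the 81 (Rpsa and Rpl22l1), or 2.47%, where it called 6.03% of all genes with an adjusted p. On HFD, 30 of the 81 were higher and 51 lower, with a median of -0.15, against -0.01 over all genes tested. With the trend with transcript length removed and animal as a block, the direction turned, with a median of 0.13 and 56 of the 81 higher. Without animal 516 or 517 the HFD median was -0.061 or -0.074, and without animal 676 it was -0.39. By edgeR 0 of the 81 were called on HFD, where 0.0139% of all genes were, and 3 passed an unadjusted p under 0.05, where 6.51% of all genes did. DESeq2 gave an adjusted p there to 2 of the 81 and called neither, where it called 12.6% of the 1274 genes with an adjusted p.

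Rpsa, the laminin receptor precursor that is also a protein of the small subunit, was the member with the smallest p. It lies on chromosome 9 at 120127766 to 120132369. In CFD it stood at 68.1, 80.0 and 69.01 CPM in input and at 211, 203 and 314 CPM in IP. In HFD it stood at 79.6, 88.7 and 72.4 CPM in input and at 133, 200 and 112 CPM in IP. Every IP library lay above every input library, so the fractions did not overlap on either diet, and the IP exceeded the input in 6 of 6 animals.

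For Rpsa in CFD the log2 fold change of IP against input was 1.75 (SE 0.353), an increase of 3.35-fold with an edgeR adjusted p of 0.0711. The call was lost without animal 489, 555 or 556, with adjusted p of 0.245, 0.185 and 0.396. In HFD it was 0.89 (SE 0.345), and the edgeR adjusted p was 0.653 (unadjusted 0.0175). Averaged over both diets it was 1.32 (SE 0.246), an increase of 2.49-fold with an edgeR adjusted p of 0.0207. That call was lost without animal 516, 517 or 556, with adjusted p from 0.112 to 0.122. Rpsa has 11 near-identical copies in the genome.

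Over both diets, 46 of the 81 genes were higher in IP and the median log2 fold change was 0.06, against -0.03 for all genes tested. Without animal 676 the median was -0.09 and 29 were higher, and without animal 489 it was 0.0096. With the length trend removed and animal as a block it was 0.29. By edgeR at an adjusted p under 0.1, 1 of the 81 was called, again Rpsa, where 2.35% of all genes were. At an unadjusted p under 0.05, 4 of the 81 passed, where 13.9% of all genes did. DESeq2 called 2 of the 81 (Rpsa and Rpl22l1), where it called 7.36% of all genes with an adjusted p. The 4 genes at an edgeR unadjusted p under 0.05 were Rpsa, Rpl22l1, Rplp1 and Rps4l. Rps4l had a log2 fold change of 2.20 (SE 0.999, edgeR adjusted p 0.325). IP lay above input in all 6 animals for 4 genes (Rpl3, Rps19, Rps28 and Rpsa), or 4.94%, where 4.09% of all genes did so. IP lay below input in all 6 animals for 3 genes (Rpl22l1 and Rps13 among them), or 3.704%, where 4.15% of all genes did so.

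Other genes with small p in these contrasts did not pass. Rps19, mutated in Diamond-Blackfan anaemia, stood at 17.5, 14.4 and 36.4 CPM in CFD input and at 48.6, 85.5 and 37.4 CPM in CFD IP, a log2 fold change of 1.33 (SE 0.614, edgeR adjusted p 0.403). Rps13 was lower in CFD IP, with a log2 fold change of -1.38 (SE 0.725). In HFD, Rpl15 had a log2 fold change of -1.06 (SE 0.437, edgeR adjusted p 0.689) and Rpl10a -1.18 (SE 0.561), while Rplp1 had 0.61 (SE 0.405).

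**Figure D5:**
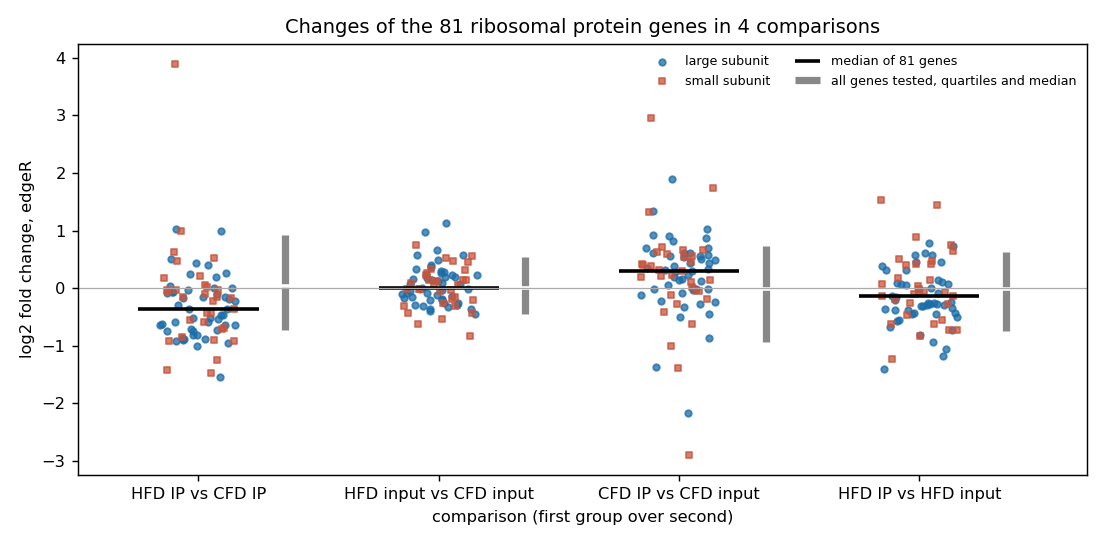
Log2 fold change of each of the 81 genes in 4 comparisons (points, large subunit blue, small subunit red), with the median as a black line and, as grey bars, the quartiles of all 14354 genes tested with their median as a gap. The median is -0.36 between the diets in IP, 0.00 in input, 0.29 for IP against input on CFD and -0.15 on HFD, where it turns to 0.13 with the length trend removed and animal as a block. The median between the diets in input moves to -0.19 with the length trend removed.

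The interaction of diet and fraction tested whether the difference of IP and input depended on diet. The median log2 interaction was -0.43 over the 81 genes and 0.06 over all genes. Negative values were found in 62 of the 81, where 6863 of the 14354 genes tested had them. By edgeR at an adjusted p under 0.1, 0 of the 81 were called, where 0% of all genes were, and 1 passed an unadjusted p under 0.05, where 5.36% of all genes did. DESeq2 called 0 of the 81, where it called 0.877% of genes with an adjusted p. The median was -0.69 without animal 676. The gene that passed was Rpl13, at -1.08 (SE 0.503, edgeR unadjusted p 0.0431, adjusted p 0.896). Rpl15 had -1.19 (SE 0.613). In the positive direction, Rps27l had 4.44 (SE 2.21) and Rps6 1.15 (SE 0.882).

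The stalk of the large subunit, which recruits elongation factors, is built from Rplp0, Rplp1 and Rplp2. Rplp1 was higher in IP in 5 of 6 animals, at 91.8, 86.6 and 66.0 CPM in CFD input and 158, 171 and 118 CPM in CFD IP. In HFD it stood at 91.6, 104 and 83.2 CPM in input and 233, 67.3 and 125 CPM in IP. The CFD fractions did not overlap, and in HFD animal 517 went the other way. Over both diets the log2 fold change was 0.74 (SE 0.287, edgeR unadjusted p 0.0170, adjusted p 0.237).

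Rplp2 and Rplp0 had log2 fold changes of 0.34 (SE 0.334) and 0.03 (SE 0.455) for IP against input over both diets. Rplp0 was among the less steady members, at 114, 21.3 and 55.7 CPM in CFD IP and 7.73, 41.8 and 52.6 CPM in HFD IP. None of the 3 stalk genes was called by edgeR in the 6 comparisons; the call of Rplp1 with the length trend removed is given with the processing alternatives.

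Rpl5 and Rpl11, which bind the small 5S RNA and restrain Mdm2 when ribosome assembly fails, overlapped between the diets in both fractions. Rpl5 averaged 28.3 ± 8.93 CPM in CFD input, 41.8 ± 15.4 in CFD IP, 31.5 ± 6.75 in HFD input and 25.4 ± 8.10 in HFD IP (SD, n = 3 each). Rpl11 averaged 31.9 ± 3.60, 40.6 ± 14.4, 38.7 ± 9.61 and 36.6 ± 13.4 CPM in the same groups. Their log2 fold changes between HFD IP and CFD IP were -0.72 (SE 0.610) and -0.15 (SE 0.565).

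Of the other members with particular roles, Rps27a, which is made as a fusion with ubiquitin, averaged 22.9 to 31.3 CPM in the 4 groups. Rps2 averaged 44.2 to 69.8 CPM and Rps3, which also takes part in DNA repair, 77.5 to 103 CPM. Rpl38, known for its effect on Hox mRNA translation, averaged 24.6 to 43.1 CPM, and Rpl13a, known for silencing inflammatory mRNAs, 53.7 to 102 CPM. Rpl38 was steady in CFD IP at 42.3, 41.8 and 45.2 CPM and spread in HFD IP at 37.0, 43.6 and 19.9 CPM. The log2 fold changes of these 5 genes between the diets in IP ran from -0.43 (SE 0.481) in Rps2 to -0.15 (SE 0.646) in Rps27a, each smaller than its SE.

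Ribosomal genes that the symbol pattern misses include Fau, made as a fusion with a ubiquitin-like domain, Gnb2l1 (Rack1) and Rps3a1. Between HFD IP and CFD IP their log2 fold changes were -0.33, 0.07 and 0.22, and none was called by edgeR. For IP against input over both diets, Rps3a1 had -0.68 (SE 0.339, edgeR unadjusted p 0.0559), while Gnb2l1 had 0.23 and Fau 0.33.

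Other genes of the pathway were counted from lists. Of 20 other TOP mRNAs for translation factors and the like, 11 were higher and 9 lower in HFD IP against CFD IP, with a median of 0.06 and 0 called. Elongation factor Eef2 had -0.71 (edgeR unadjusted p 0.0442) and Eif4b -0.88 (0.0219), while Eif3e, a subunit of initiation factor 3, had 2.22 (0.000214, adjusted p 0.220). Of 39 tested genes of ribosome assembly, 22 were higher and 0 were called, and of 26 genes of mTORC1 control, 15 were higher and 0 were called. The 77 genes of the mitochondrial ribosome had a median of 0.20, with 45 higher and 0 called. At an unadjusted p under 0.05, 3 of the 20, 1 of the 39, 3 of the 26 and 5 of the 77 passed, where 10.9% of all genes did. DESeq2 called 1 (Eif3e), 1 (Rrn3), 2 (Tsc1 and Lamtor4) and 4 of them, where it called 5.79% of all genes with an adjusted p.

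For IP against input over both diets, edgeR called 2 genes of these lists, where it called 2.35% of all genes. They were 1 of the 26 genes of mTORC1 control and 1 of the 39 of ribosome assembly. Mtor, the kinase of mTORC1, was higher in IP by 1.19 on the log2 scale (SE 0.295), at an adjusted p of 0.0598. Wdr43, which takes part in processing of ribosomal RNA, was lower with -2.02 (SE 0.564) and an adjusted p of 0.0858. None of the 20 other TOP genes and none of the 77 mitochondrial ribosomal genes was called there by edgeR. At an unadjusted p under 0.05, 1 of the 20 and 1 of the 77 passed, where 13.9% of all genes did, and DESeq2 called 0 and 1 (Mrpl11), where it called 7.36%. It also called Mtor and Wdr43, and Tsc1 and Lamtor4 of mTORC1 control.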

How the data were processed

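Per the labels and the study's methods, 69-base paired-end reads were aligned with STAR to mm10, and HTSeq is named among the tools. Its settings and strand use are not given in the sources used here, and the labels and methods name different library kits. The deposited values used were raw counts per gene symbol and FPKM, which the authors derived from the same counts by gene length and library total. A further 18 per-sample columns and the authors' own comparison columns (log2 fold changes and p-values) were not used.

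Counts were tested in R 4.3.3 with edgeR 4.0.16, with filterByExpr, TMM scaling, 4 group means, all 12 libraries and glmQLFTest, adjusted by Benjamini-Hochberg over 14354 genes. The SE is the log2 fold change over the square root of F. Alternatives used DESeq2 1.42.0 and limma 3.58.1. IP and input of 1 mouse are paired, and their deviations from group means correlated at 0.0064 to 0.19 over all genes and at -0.32 to 0.24 over the 81 genes, where the value was negative in 4 of 6 animals. The fit was tested on simulated data, but recovery of set changes was required only at a dispersion far below the estimated one. That test does not show recovery at the spread of these libraries. Replicates differed far beyond sampling noise. Members and lists were chosen with earlier results of these data known. Named were the paralogs, members with particular roles, called members or the 3 smallest p per direction, and extremes of level and spread. Values of some genes that this rule names are not reported here.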

Additional observations from a re-analysis of the deposited data

How the results depend on the processing

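With 3 animals per diet and this spread, most single-gene differences could not be resolved, and the limits of copies, kit and strand hold throughout. Of the comparisons of named genes under alternatives, 492 kept their direction and side of the threshold, 7 lost a call, 6 gained one and none changed direction. Only Rpsa, on CFD and over both diets, was called in the main fit, so all 7 lost calls were its own. For the other genes a kept side means that they stayed uncalled. Most were picked for small p in these same data, so the tally is no measure of how stable the results are. DESeq2 called 3 members between the diets in IP (Rps15, Rpl10a and Rps27l, adjusted p 0.0439, 0.0964 and 0.0843), where it called 5.79% of genes with an adjusted p. It called 2 for IP against input on CFD and 2 over both diets, Rpsa and Rpl22l1 (Rpl22l1 adjusted p 0.0688 and 0.0186), where it called 6.03% and 7.36% of genes. At an adjusted p under 0.05, or with only the libraries compared, 0 members were called for IP against input on CFD. Leaving out each animal gave 0 to 1 called on CFD and 0 to 1 over both diets. The median on CFD then ran from 0.18 (without animal 489) to 0.43 (without animal 556). The median in HFD IP against HFD input then ran from -0.39 to -0.061 and that of the interaction from -0.69 to -0.32, the lowest value of each without animal 676. The median in HFD input against CFD input ran from -0.079 (without animal 489) to 0.20 (without animal 676).

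With animal as a replicate block, which pairs IP and input, calls among members did not change: Rpsa had 1.72 on CFD and 1.28 over both diets, with 139 and 451 genes called in all, against 27 and 337. With the block and the trend with transcript length removed, the medians became 0.54 on CFD, 0.13 on HFD, where the direction turned (56 of 81 higher), and 0.29 over both diets, with 2 members called (Rpsa and Rplp1, adjusted p 0.0505). Over both diets that fit called 348 of all 14354 genes, so 2 of the 81 was not above the background. Without Rn45s and Lars2 in the total the shares became 0.594% in CFD input and 0.622% in CFD IP. Leaving out each animal, chosen after seeing the data, gave 16 to 23 members lower and 2 to 6 higher without overlap in HFD IP, where 7.40% to 9.99% and 10.0% to 11.7% of all genes were. The causes of these shifts were not tested.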
